A study of Mus musculus with 4 samples.

Results

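The genes described here are 31 genes of glycolysis and of the metabolic response to low oxygen, measured in single cells of the mouse aorta. They were taken by symbol, and all 31 were found among the 16408 nuclear genes listed in at least 1 of the 4 deposited plates, with 28 or 29 of them listed per plate. Cells that were CD31+, CD45- and negative for the dead-cell dye TO-PRO-3 were sorted from the aortas of 4 mice and analysed by SORT-seq, in which each cell is lysed in its own well and the 3′ ends of its transcripts are counted by unique molecular identifiers (UMIs). All 4 mice carried floxed *Epas1* alleles (Epas1fl/fl), on a C57BL/6 background by the study's methods. The 2 mice labelled *Epas1* EC-KO also carried Cdh5Cre, a Cre recombinase driven by the promoter of the endothelial cadherin gene, which the methods give as a tamoxifen-inducible form. The 2 mice labelled *Epas1* EC-WT were littermates without it. By the methods, tamoxifen was given by injection from 6 weeks of age, at 2 mg per day for 5 days, and aortas were taken 2 weeks later. Values are given below in the order EC-KO mouse 1, EC-KO mouse 2, EC-WT mouse 1 and EC-WT mouse 2.

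Glycolysis splits glucose to pyruvate in the cytosol, and lactate dehydrogenase then turns pyruvate into lactate. Endothelial cells are known to draw much of their ATP from this route although they line vessels carrying oxygenated blood. When oxygen falls, the hypoxia-inducible factors HIF-1α and HIF-2α (the latter encoded by *Epas1*) are stabilized and bind short DNA elements with the core ACGTG or GCGTG. HIF-1α is best known for raising glycolytic enzymes, and HIF-2α shares part of its targets. In the endothelium, the transcription factors KLF2 and KLF4 are induced by laminar flow, and KLF2 is known to lower PFKFB3, which makes the activator of phosphofructokinase.

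Wells were taken as cells where nuclear genes had 1000 UMIs or more and mitochondrial genes no more than 25% of the UMIs, which left 157, 98, 114 and 72 wells. The methods describe more sequenced cells from EC-WT than from EC-KO aortas, the opposite of what these files hold, so groups are named by their labels throughout. Of the 441 kept wells, 21 carried smooth muscle markers at 1% of their UMIs or more and were set apart, leaving 146, 93, 111 and 70 cells with 1009034, 755186, 641363 and 549570 UMIs. The number of reads per UMI was 10.5 in EC-KO mouse 1 and 18.6 to 22.1 in the other mice. In the remaining cells all 14 endothelial markers were present, and they summed to between 10840 and 14167 CPM (UMIs scaled to a nuclear total of 1000000), the immune list to at most 14.6 CPM, and *Ptprc*, the gene of CD45, had 1 UMI in all. The fibroblast list summed to 2880, 1833, 1247 and 1589 CPM and the smooth muscle list to 563, 935, 206 and 329 CPM, both higher in the mice labelled EC-KO. The 420 cells include 5 with fibroblast markers at 1% of their UMIs or more, 4 in EC-KO mouse 1 and 1 in EC-KO mouse 2. *Epas1* itself did not separate the labels, with 3093 and 3342 CPM in the mice labelled EC-KO and 3334 and 2415 CPM in those labelled EC-WT, but 3′ tags need not fall in the deleted sequence, which the sources used here do not place, so these levels do not check the deletion. The study checked it by quantitative PCR of endothelial RNA and by staining of the aorta, neither of which was analysed here. Whether the labels of the groups were exchanged cannot be told from these files, and if they were, every fold change of EC-KO over EC-WT given below would have the opposite sign. *Hif1a* had 130, 114, 126 and 102 CPM.

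*Pfkfb3* was the only one of the 31 genes called in the comparisons below under their main settings (alternatives also called *Ndrg1*, *Gapdh* and *Pfkp*, as given there). It is listed on chromosome 2 and lies, in the GENCODE M21 annotation of GRCm38, from 11471433 to 11554077 on the minus strand. RefSeq gives 2 start windows for it on GRCm38.p6, each from 250 bases before to 50 bases after a transcript start. Promoter windows were found for 29 of the 31 genes (all except *Bnip3l* and *Ndrg1*). The windows of *Pfkfb3* are shown 5′ to 3′ on the minus strand because they hold both the hypoxia-response core (ACGTG or GCGTG, either strand) and CACCC (either strand), the letters that KLF factors recognise, all in capitals.
Pfkfb3 upstream start, chr2:11553880-11554179: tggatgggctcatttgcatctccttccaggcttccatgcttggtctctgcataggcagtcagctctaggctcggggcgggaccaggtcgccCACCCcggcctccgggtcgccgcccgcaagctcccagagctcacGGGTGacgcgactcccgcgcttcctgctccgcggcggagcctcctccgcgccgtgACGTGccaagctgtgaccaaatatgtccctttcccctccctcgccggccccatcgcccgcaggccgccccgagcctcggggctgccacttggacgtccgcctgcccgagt
Pfkfb3 downstream start, chr2:11502041-11502340: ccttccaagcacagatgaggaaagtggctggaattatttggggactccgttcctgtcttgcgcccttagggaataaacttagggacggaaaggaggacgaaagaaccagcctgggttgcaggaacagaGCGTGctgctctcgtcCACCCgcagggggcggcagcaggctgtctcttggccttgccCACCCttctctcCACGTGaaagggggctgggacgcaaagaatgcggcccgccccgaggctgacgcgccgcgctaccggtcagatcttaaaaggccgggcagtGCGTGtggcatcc
The upstream window holds 1 match to the hypoxia-response core and 2 to CACCC. The downstream window holds 4 matches to the core, of which a pair overlaps in one CACGTG palindrome, and 2 to CACCC. Such matches are common. The core was present in 43.8% of all 32851 promoter windows of this length and in 36 of 44 windows of the listed genes (81.8%), and CACCC in 57.5% of all windows and 29 of 44 (65.9%). A match is a description of the letters, not of binding.

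The 31 genes ranged from 1 UMI to 1447 UMIs over the 4 mice (plot of levels by mouse). Each transcript gives a UMI at its 3′ end whatever its length, so CPM values were set side by side between genes without a length correction. Together the 31 genes made up 3303, 3553, 3240 and 3410 CPM, of which the 16 glycolytic enzymes gave 1885, 1981, 2007 and 2111 CPM. The sum over all 31 genes overlapped between the labels. The enzyme sum was lower in both mice labelled EC-KO (1933 ± 67.9 against 2059 ± 73.6 CPM, SD, n = 2 each), and the sum of the 10 other hypoxia-inducible genes was higher in both, at 1279, 1455, 1135 and 1205 CPM. In EC-WT mouse 2, the mouse with the highest enzyme sum, 1 cell held 13.1% of the enzyme UMIs from 7.53% of all UMIs, which raised that sum. These sums are descriptions and were not tested.

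**Figure D1:**
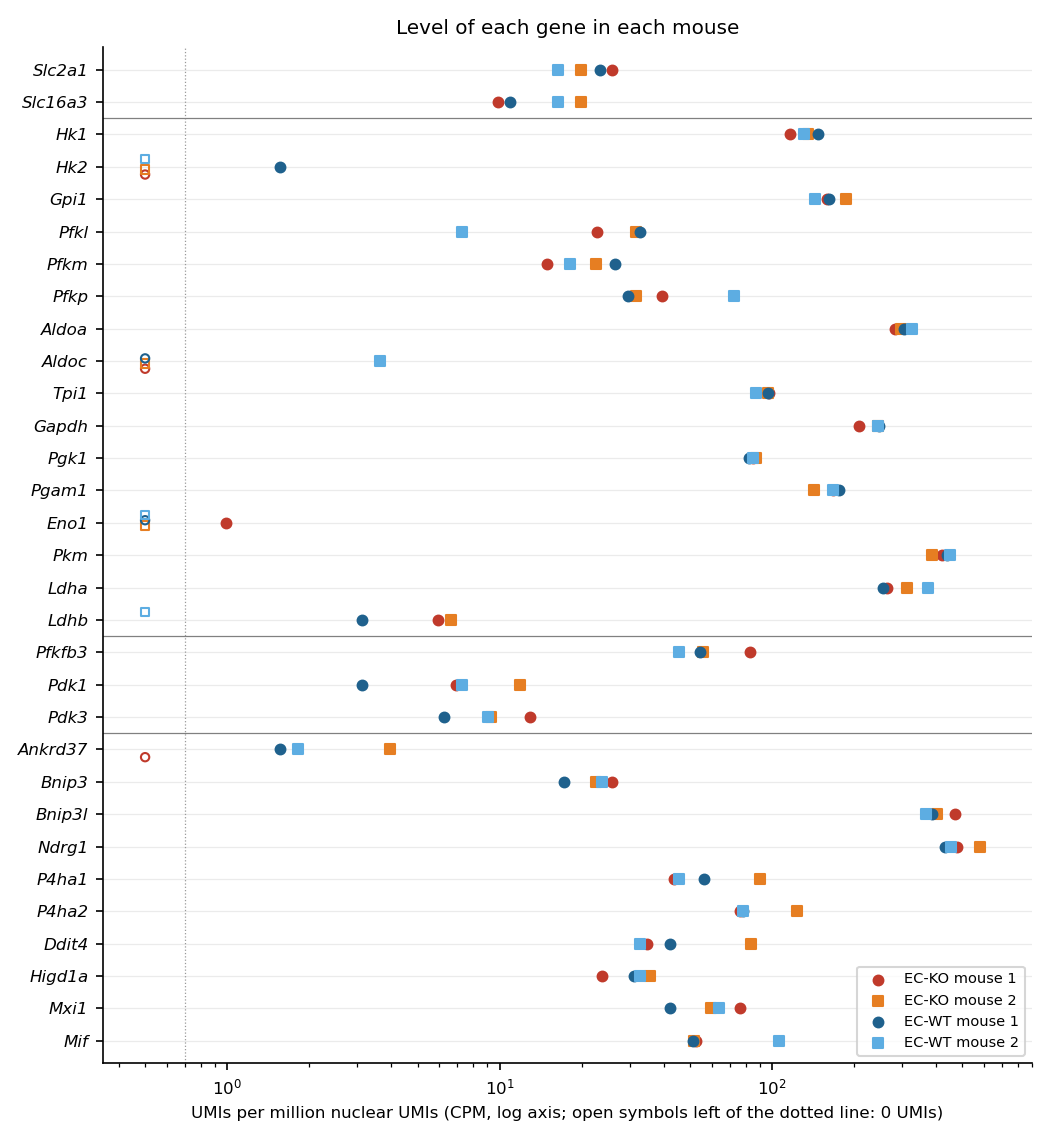
Level in CPM (log axis) of the 31 genes in each of the 4 mice, 1 symbol per mouse, with genes grouped from top to bottom as transporters, glycolytic enzymes, regulators of flux and other hypoxia-inducible genes. Open symbols left of the dotted line had 0 UMIs. *Ndrg1*, *Bnip3l* and *Pkm* lie at the top, and *Eno1*, *Hk2*, *Aldoc*, *Ldhb* and *Ankrd37* at 0 in at least 1 mouse.

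Of the transporters, the 2 listed genes had few UMIs. *Slc2a1*, the glucose transporter GLUT1, had 25.8, 19.9, 23.4 and 16.4 CPM, from 26, 15, 15 and 9 UMIs. *Slc16a3*, the lactate exporter MCT4, had 9.91, 19.9, 10.9 and 16.4 CPM. Neither gene separated the labels.

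For hexokinase, aldolase and lactate dehydrogenase, 1 listed gene held nearly all UMIs of the enzyme. Hexokinase, which traps glucose in the cell, was read almost entirely from *Hk1*, with 386 of 387 UMIs (99.7%, 95% Clopper-Pearson interval 98.6% to 100%, counting error only). *Hk1* had 116, 135, 148 and 131 CPM, while *Hk2*, the inducible hexokinase, had 1 UMI, in EC-WT mouse 1. A count of 0 in a mouse allows up to 2.97, 3.97, 4.68 and 5.46 CPM (3 UMIs of the total). *Aldoa* held 886 of the 888 aldolase UMIs (99.8%, interval 99.2% to 100%), and both UMIs of *Aldoc* came from EC-WT mouse 2. *Ldha* held 873 of the 886 UMIs of the lactate dehydrogenase subunits (98.5%, interval 97.5% to 99.2%). *Ldhb* had 6, 5, 2 and 0 UMIs.

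For phosphofructokinase, the committed step, all 3 isoforms were present. Of 254 UMIs, *Pfkp* (platelet form) held 48.4% (interval 42.1% to 54.8%), *Pfkl* (liver form) 28.3% (22.9% to 34.3%) and *Pfkm* (muscle form) 23.2% (18.2% to 28.9%). The mix was not the same in every mouse. The share of *Pfkp* was 51.3%, 36.9%, 33.3% and 74.1%, and that of *Pfkl* 29.5%, 36.9%, 36.8% and 7.41%. EC-WT mouse 2 therefore had the highest *Pfkp* share and the lowest *Pfkl* share, from 40 and 4 of its 54 phosphofructokinase UMIs, and it differed from EC-WT mouse 1 more than the EC-KO mice did from each other.

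Among the remaining enzymes, *Pkm*, which makes pyruvate, was highest at 419, 385, 440 and 449 CPM. *Aldoa* followed with 283, 298, 306 and 326 CPM and *Ldha* with 265, 313, 256 and 375 CPM, and these overlapped across mice. *Gapdh*, which oxidizes the triose phosphate, had 209, 245, 246 and 244 CPM. *Gpi1*, *Pgam1*, *Tpi1* and *Pgk1*, which carry out the steps between glucose phosphate and enolase with it, lay between 82.6 and 187 CPM. Relative to their level, *Pgk1* (82.6 to 87.4 CPM) and *Tpi1* (87.3 to 97.1 CPM) varied least of the tested enzymes over the 4 mice.

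Enolase stood apart from its pathway. *Eno1*, the enolase of most tissues, had 1 UMI in the whole deposit, in EC-KO mouse 1, although *Pgam1* and *Pkm*, the enzymes before and after it, had 481 and 1243. Much of its 3′ sequence is shared with other genes. Of the 50-base windows in the last 500 bases of its longest coding transcript, 75.2% also occur in transcripts of 5 other annotated genes, and how the authors treated reads that fit several genes is not given in the sources used here. *Gapdh* shared 90.5% of its windows, with 143 other genes of which 135 are annotated as pseudogenes, and yet had 688 UMIs. *Mif* shared 56.1% and *Ldhb* 24.4%, *Pgk1*, *Gpi1* and *Aldoa* 7.32% or less, and the other 24 genes none. Of the other genes that share the most windows with each of these 7, none has a row in any plate apart from *Atp11a*, which shares 3.1% with *Gpi1*. The levels of *Eno1*, *Gapdh*, *Mif* and *Ldhb* are therefore uncertain, and the part of shared sequence in them was not tested.

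**Figure D2:**
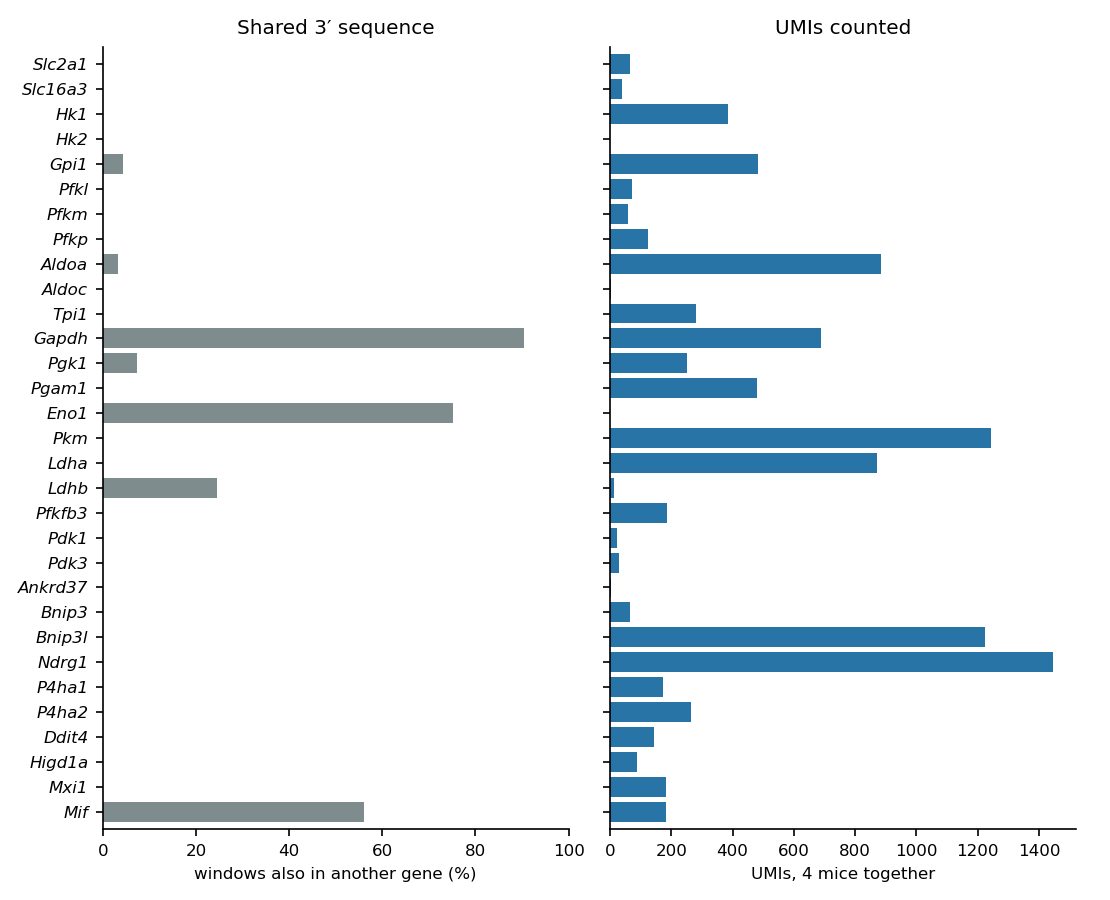
Left, percent of 50-base windows in the last 500 bases of each gene's longest coding transcript that also occur in a transcript of another gene. Right, UMIs of the gene summed over the cells of the 4 mice. *Eno1* combines 75.2% shared windows with 1 UMI, whereas *Gapdh* combines 90.5% with 688 UMIs.

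Among regulators of flux, *Pfkfb3* had 83.2, 55.6, 54.6 and 45.5 CPM, from 84, 42, 35 and 25 UMIs. EC-KO mouse 1 was high and the other 3 mice lay close together. *Pdk1* and *Pdk3*, kinases that shut pyruvate out of the mitochondria by inactivating pyruvate dehydrogenase, were rare, with 7, 9, 2 and 4 UMIs and 13, 7, 4 and 5 UMIs.

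The highest levels among the other hypoxia-inducible genes matched or passed those of the enzymes. *Ndrg1*, a stress-induced gene on chromosome 15 from 66929318 to 66969640 on the minus strand, had 479, 580, 430 and 455 CPM. *Bnip3l*, a receptor for the removal of mitochondria, had 468, 404, 385 and 366 CPM. Its relative *Bnip3* had 25.8, 22.5, 17.2 and 23.7 CPM, so that *Bnip3l* held 94.8% of the UMIs of the pair (interval 93.5% to 96%), with 93.9% to 95.7% in each mouse. For the prolyl hydroxylases that modify collagen, *P4ha2* had 76.3, 124, 78 and 78.2 CPM and *P4ha1* 43.6, 90, 56.1 and 45.5 CPM, both highest in EC-KO mouse 2. *P4ha2* held 60.4% of their UMIs (interval 55.7% to 65%). *Ddit4*, an inhibitor of mTORC signalling, was also highest in EC-KO mouse 2, at 34.7, 83.4, 42.1 and 32.8 CPM. *Mxi1*, an antagonist of MYC, had 76.3, 59.6, 42.1 and 63.7 CPM. *Higd1a*, a mitochondrial protein of the respiratory chain, had 23.8 to 35.8 CPM, and the cytokine gene *Mif* had 52.5, 51.6, 51.5 and 106 CPM, with EC-WT mouse 2 far above the rest. *Ankrd37* had 0, 3, 1 and 1 UMIs.

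The mice labelled EC-KO were then compared with those labelled EC-WT, the question being whether loss of endothelial *Epas1* goes with a change in these genes. No gene of the 31 was called different. UMIs were summed per mouse and tested over all genes with edgeR's quasi-likelihood test and Benjamini-Hochberg adjustment at 0.05. Of 8128 genes tested none was called (0%), 455 (5.6%) had an unadjusted P under 0.05, and DESeq2 called none and had 115 under 0.05. The filter on low counts passed 24 of the 31 genes. *Hk2*, *Aldoc*, *Eno1*, *Ldhb*, *Pdk1*, *Pdk3* and *Ankrd37* were too rare to test. None of the 24 had an unadjusted P under 0.05, and their smallest adjusted P was 0.885.

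The estimates are described here by group of genes, and no difference between groups was tested. Of the 12 enzymes tested, 4 had a positive and 8 a negative log2 fold change (EC-KO over EC-WT), with a median of -0.09. Of the 9 other hypoxia-inducible genes tested, 7 were positive and 2 negative, with a median of 0.30. These counts rest on single mice and, for the enzymes, on the largest cells. Without EC-KO mouse 2 the other hypoxia-inducible genes had 5 positive and 4 negative estimates and a median of 0.03. Without EC-KO mouse 1 the enzymes had 7 positive and 5 negative estimates and a median of 0.00. Without cells over 3 times the median UMIs, the enzymes that changed sign were *Aldoa*, *Pkm* and *Pfkm*, then at 0.10, 0.07 and 0.12. Over the 24 genes the median was 0.12, against 0.00 over all genes tested. After TMM scaling, both mice labelled EC-KO lay above both labelled EC-WT for 6 of the 24 genes (25%), *Gpi1*, *Pgk1*, *Pfkfb3*, *Bnip3l*, *Ndrg1* and *P4ha2*, where 17.9% of all genes tested did so. Both lay below for *Aldoa* and *Pkm* (8.33%), where 17.8% of all genes did so.

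For single genes the intervals set what these 4 mice can show. *Pfkfb3* had 69.4 ± 19.5 CPM in the mice labelled EC-KO and 50 ± 6.42 in those labelled EC-WT (SD, n = 2 each). Its log2 fold change was 0.52 (95% interval -0.14 to 1.18, adjusted P = 0.885 from edgeR). Without EC-KO mouse 1 it was 0.15, and between EC-KO mouse 2 and EC-WT mouse 1, the only pair sequenced on a common flow cell, it was 0.03. Between that pair *Ndrg1*, *P4ha2* and *Ddit4* were at 0.43, 0.68 and 0.99, against 0.29, 0.38 and 0.64 over the 4 mice. *Mif* was at 0.01 between that pair, against -0.53. *Ndrg1* had 529 ± 71.6 and 443 ± 17.4 CPM (SD, n = 2 each) and a log2 fold change of 0.29 (-0.11 to 0.69, adjusted P = 0.894 from edgeR). *Ddit4* had the largest positive estimate, 0.64 (-0.22 to 1.5), which rested on EC-KO mouse 2 and was -0.05 without it. *Mif* had the largest negative one, -0.53 (-1.23 to 0.16), with EC-WT mouse 2 alone high. Among the enzymes, *Pkm* was estimated at -0.11 (-0.50 to 0.29), *Aldoa* at -0.08 (-0.48 to 0.31) and *Gapdh* at -0.08 (-0.49 to 0.33). These intervals do not show that the groups were alike. The fibroblast and smooth muscle lists, both higher in the mice labelled EC-KO as given above, and the reads per UMI moved with the labels, and their part in these estimates was not tested. Without the 5 cells with fibroblast markers the log2 fold changes of *Pfkfb3*, *Ndrg1* and *P4ha2* were 0.46, 0.32 and 0.37.

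**Figure D3:**
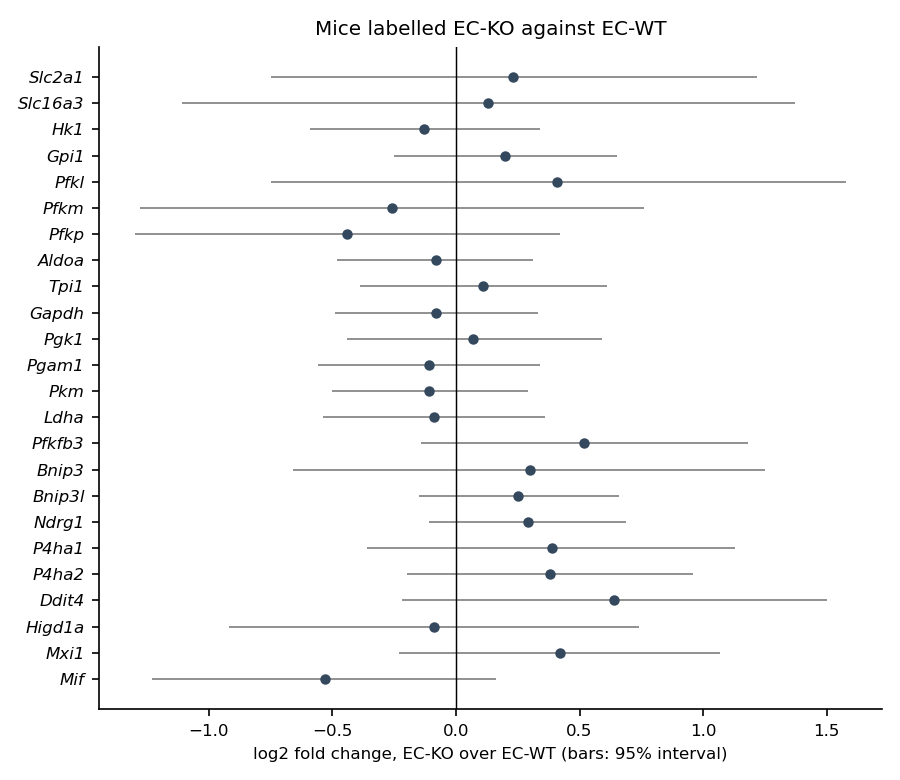
Log2 fold change, mice labelled EC-KO over mice labelled EC-WT, of the 24 genes that passed the filter on low counts, with points for the edgeR estimate and bars for its 95% interval (n = 2 mice per group). Every interval includes 0.

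The other genes of these pathways gave no call between the labels either. The lists were other glycolytic isoenzymes and regulators (5 of 21 genes tested, all 5 with negative estimates), other glucose and monocarboxylate carriers (2 of 9), genes of pyruvate entry into mitochondria (9 of 12), the pentose phosphate pathway (7 of 7) and other HIF targets (13 of 25, 7 positive and 6 negative, median 0.08). None of these was called. Of all 8128 genes tested, 4030 had negative estimates. An unadjusted P under 0.05 from edgeR was reached by *Pgm1* (1 of 5 isoenzymes and regulators) and by 3 of 13 other HIF targets (*Plod1*, *Plod2* and *Bhlhe40*). The other lists had 0 such genes, and all genes tested had 455 of 8128.

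Cells were next ranked within each mouse by the share of their UMIs on *Klf2* and *Klf4*, to ask whether glycolytic and hypoxia-inducible genes differ between cells with much and with little of these flow-induced factors. Among cells with at least 2000 UMIs, the upper and the lower of 3 equal parts, here called Klf-high and Klf-low cells, held 44, 28, 27 and 19 cells each. They are ranges of a share and not cell types, and no listed gene was used to choose them. *Pfkfb3* was lower in Klf-high cells. Klf-low cells had 98.2, 80, 81.4 and 89.6 CPM of *Pfkfb3* and Klf-high cells 50, 18.7, 29.4 and 45.9 CPM, so that the highest Klf-high value was below the lowest Klf-low value. The means were 87.3 ± 8.43 and 36 ± 14.6 CPM (SD, n = 4 mice).

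With the mouse as a block, the log2 fold change of *Pfkfb3* (Klf-high over Klf-low) was -1.34 (standard error 0.37, 95% interval -2.09 to -0.60, adjusted P = 0.0391 by edgeR). Of 5019 genes tested, 107 were called (2.13%, 55 higher and 52 lower in Klf-high cells) and 526 (10.5%) had an unadjusted P under 0.05. Of the 31 genes, 19 could be tested. *Pfkfb3* was the 1 called, and 4 had an unadjusted P under 0.05. The call was close to the threshold. It was kept in 2 of 11 alternatives and lost in 9, with adjusted P between 0.0459 and 0.643, while the estimate was negative in all 11 (-1.52 to -0.64). The Klf-high sums rest on 18, 4, 5 and 7 UMIs of *Pfkfb3* and the Klf-low sums on 33, 22, 17 and 11.

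Other features of the cells moved with the same ranking. A set of 11 immediate-early and heat-shock genes (such as *Fos*, *Jun*, *Egr1* and *Hspa1a*), which rise when tissue is digested, summed to 741 to 1182 CPM in Klf-low and 1521 to 3329 CPM in Klf-high cells, higher in Klf-high cells of all 4 mice. The fibroblast list (8 of 8 genes present) summed in Klf-low and Klf-high cells to 3012 and 1437 CPM in EC-KO mouse 1, 2054 and 1665 in EC-KO mouse 2, 1134 and 1413 in EC-WT mouse 1 and 1360 and 1338 in EC-WT mouse 2. The smooth muscle list (11 of 11 genes present, *Des* at 0 in Klf-low cells) was lower in Klf-high cells of all 4 mice, at 792, 1123, 249 and 326 CPM in Klf-low and 411, 909, 147 and 229 CPM in Klf-high cells. The cells set apart by those markers had 465 CPM of *Gapdh*, 160 CPM of *Ndrg1* and 220 CPM of *Bnip3l*, against 233, 490 and 415 CPM in the other cells. They had 30 CPM of *Pfkfb3* (6 UMIs), 45 CPM of *Mif* and 525 CPM of *Pkm*, against 62.9, 61.9 and 421 CPM. The median cell had 7024, 9646, 6747 and 5144 UMIs among Klf-low and 6418, 7334, 4342 and 5539 among Klf-high cells. The median mitochondrial share was 4.64% in Klf-low and 9.79% in Klf-high cells of EC-KO mouse 1 and differed less in the other mice. The endothelial list (14 of 14 genes) summed to 10537 to 13630 CPM in Klf-low and 11314 to 14799 CPM in Klf-high cells. The part of any of these in the values of *Pfkfb3*, *Gapdh*, *Ndrg1* or the other genes was not tested.

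None of the 10 enzymes tested was called. Of them, 3 had positive and 7 negative estimates, with a median log2 fold change of -0.15 against -0.01 over all genes tested. *Gapdh* had 238, 265, 316 and 244 CPM in Klf-low and 197, 196, 194 and 157 CPM in Klf-high cells, lower in all 4 mice. Its log2 fold change was -0.54 (-0.93 to -0.15), but the adjusted P was 0.19 (edgeR). *Pkm* lay on the other side, higher in Klf-high cells of all 4 mice, with an estimate of 0.16 (-0.18 to 0.49). *Hk1* was also higher in 4 of 4 mice, with 116, 135, 101 and 97.8 CPM in Klf-low and 125, 145, 194 and 151 CPM in Klf-high cells, an estimate of 0.35 (-0.16 to 0.85) and an adjusted P of 0.717 (edgeR). *Ldha* was estimated at -0.15 (-0.51 to 0.21). Agreement in all 4 mice is only described for these and the following genes. The share of all genes tested that moved one way in all 4 mice is not given here.

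The other hypoxia-inducible genes split in direction. *Ndrg1* had 295, 505, 383 and 350 CPM in Klf-low and 664, 643, 400 and 525 CPM in Klf-high cells, higher in all 4 mice but by little in EC-WT mouse 1. Its log2 fold change was 0.51 (0.16 to 0.86, adjusted P = 0.154 from edgeR), and it passed the threshold in 3 of 12 alternatives (adjusted P 0.0184 to 0.694), namely ranking by *Klf2* alone, ranking after thinning and ranking cells of any depth. Without EC-KO mouse 1 its estimate was 0.28, with an adjusted P of 0.694 (edgeR). *Bnip3l* was higher in 4 of 4 mice, with an estimate of 0.29 (-0.05 to 0.63). *Mif* was lower in 4 of 4, from 71.4, 72.7, 67 and 163 CPM to 38.9, 37.3, 58.9 and 85.2 CPM (estimate -0.80, -1.48 to -0.12, adjusted P = 0.343 from edgeR), and *Mxi1* was lower in 4 of 4, with an estimate of -0.67 (-1.40 to 0.05). *Slc2a1* was too rare to test, with 12, 10, 8 and 1 UMIs in Klf-low and 6, 3, 3 and 0 UMIs in Klf-high cells.

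**Figure D4:**
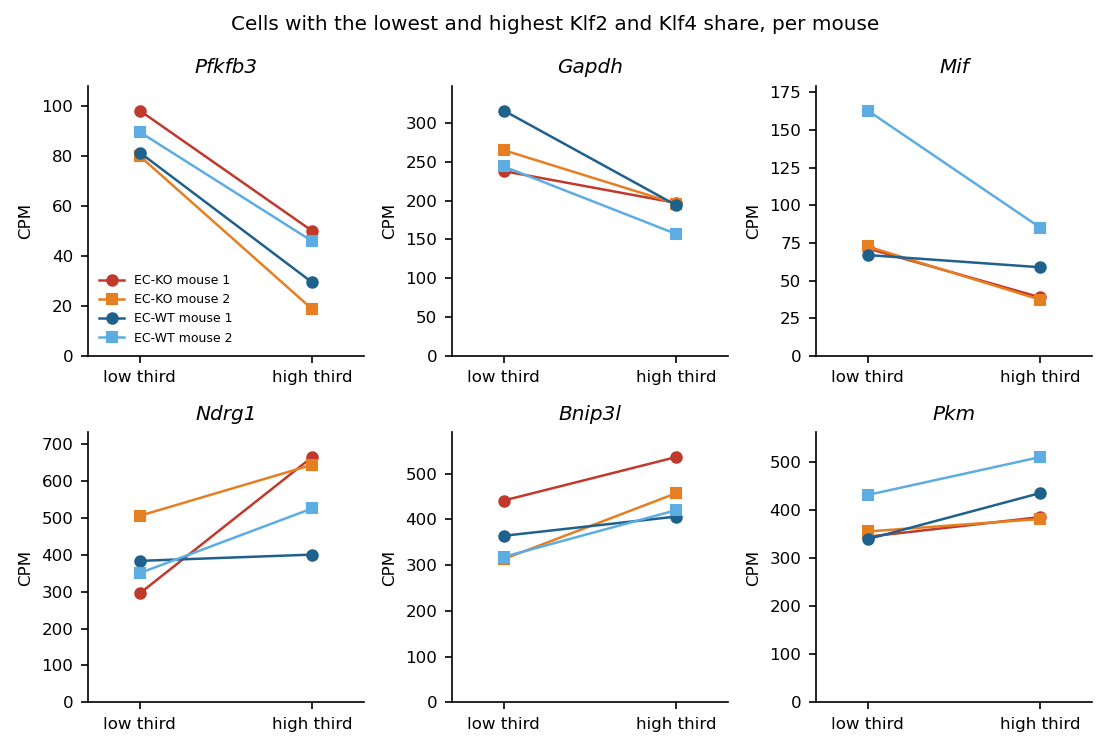
Level in CPM (axes from 0) of 6 genes in the cells with the lowest and the highest share of *Klf2* and *Klf4*, 1 line per mouse. *Pfkfb3*, *Gapdh* and *Mif* go down in all 4 mice and *Ndrg1*, *Bnip3l* and *Pkm* go up in all 4, and of these only *Pfkfb3* passed the adjusted threshold. The share of all genes tested that move one way in all 4 mice is not given here.

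In the other pathway lists, 2 genes were called between Klf-low and Klf-high cells. *Bpgm*, which diverts a glycolytic intermediate to bisphosphoglycerate, had 152, 124, 244 and 187 CPM in Klf-low and 66.7, 83.9, 106 and 91.8 CPM in Klf-high cells. Its log2 fold change was -1.06 (standard error 0.25, adjusted P = 0.0137 from edgeR), the 1 gene tested of 21 other isoenzymes and regulators. *Vegfa*, the endothelial growth factor gene and a HIF target, went the other way, from 98.2, 127, 148 and 89.6 CPM to 217, 429, 300 and 190 CPM (1.23, standard error 0.21, adjusted P = 0.000493 from edgeR). It was the 1 called of 10 other HIF targets tested, which had 5 positive and 5 negative estimates. No gene was called among the 1 carrier, 6 genes of pyruvate entry and 3 of the pentose phosphate pathway that could be tested.

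The last comparison set cells with the fatty acid genes *Cd36* or *Fabp4* against all others, since the study asks about endothelial cells that handle lipid. A cell was positive with at least 3 UMIs and 0.1% of its UMIs on the pair, which 11, 4, 12 and 7 cells met. With the mouse as a block, 365 of 6425 genes were called (5.68%) and 922 (14.4%) had an unadjusted P under 0.05. Of the 31 genes, 23 could be tested and 0 were called by edgeR or DESeq2. Of these 23, 3 had an unadjusted P under 0.05 by edgeR and 4 by DESeq2. DESeq2 had 705 of all 6425 genes under 0.05. Their median log2 fold change was -0.05, against -0.14 over all genes tested.

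The 3 were *Gapdh* and a pair of phosphofructokinase genes, all with higher values in positive cells of 4 of 4 mice. The share of all genes tested that moved one way in all 4 mice is not given here. *Gapdh* had 342, 576, 392 and 431 CPM in positive and 200, 228, 234 and 229 CPM in other cells, with no overlap. Its log2 fold change was 0.78 (0.23 to 1.34, adjusted P = 0.0823 from edgeR). *Pfkp* had 77.8, 82.3, 78.4 and 279 CPM in positive and 37, 29.2, 25.4 and 56.8 CPM in other cells (1.51, interval 0.45 to 2.58, adjusted P = 0.0819 from edgeR), and *Pfkl* was estimated at 1.69 (0.20 to 3.17, adjusted P = 0.242 from edgeR) from 4, 5, 4 and 1 UMIs in positive cells. Without TMM factors both *Gapdh* (adjusted P = 0.0185, 0.0185 to 0.605 over its 8 alternatives) and *Pfkp* (adjusted P = 0.043, 0.043 to 0.543 over its 8) were called by edgeR. At that setting 349 of all 6425 genes tested were called. *Slc2a1* was higher in positive cells of all 4 mice, with 3, 6, 2 and 1 UMIs there (estimate 1.56, -0.02 to 3.13, adjusted P = 0.356 from edgeR). Without EC-KO mouse 2, which gave 6 UMIs from 4 cells, its estimate was 0.75. The positive cells of that mouse also had 411 CPM of the lymphatic list, against 50.1 CPM in its other cells, and the part of this was not tested. *Pkm* was lower in all 4, with 327, 302, 392 and 330 CPM against 426, 390, 444 and 459 CPM (-0.50, -1.02 to 0.03, adjusted P = 0.391 from edgeR). *Pfkfb3* was estimated at -0.15 (-1.33 to 1.03) and *Ndrg1* at -0.34 (-0.83 to 0.15).

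The smooth muscle list (11 of 11 genes) was also higher in positive cells, at 1835, 1179, 274 and 685 CPM against 476, 922, 200 and 302 CPM, and cells with smooth muscle markers had 465 CPM of *Gapdh* and 145 CPM of *Pfkp*. The fibroblast list (8 of 8 genes) was lower, at 203 to 1477 CPM against 1309 to 2975 CPM. The endothelial list (14 of 14 genes) was higher in positive cells of every mouse, at 11804, 16346, 14948 and 17881 CPM against 10774, 14057, 13389 and 11289 CPM. Their part in these values was not tested. In the other pathway lists, *Vegfa* (-2.04, standard error 0.49, adjusted P = 0.00135) and *Lox* (-1.74, standard error 0.56, adjusted P = 0.0388), a collagen-crosslinking oxidase, were lower in positive cells by edgeR, from 10 and 9 UMIs there in all. They were 2 of 12 other HIF targets tested, and 0 were called among the 13 genes tested of the other lists.

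**Figure D5:**
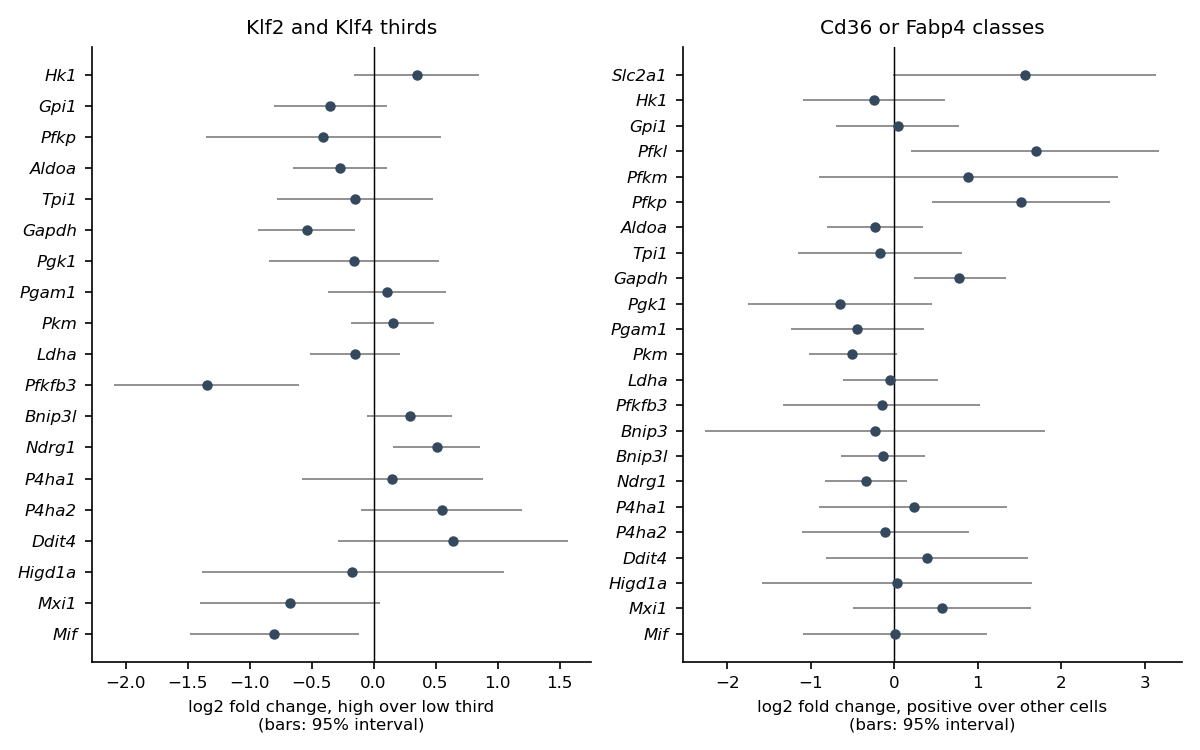
Log2 fold changes with 95% intervals (bars) from edgeR with the mouse as a block, left for Klf-high over Klf-low cells (19 genes) and right for cells positive for *Cd36* or *Fabp4* over other cells (23 genes). On the left *Pfkfb3* lies farthest from 0, and on the right *Gapdh*, *Pfkp* and *Pfkl* have intervals above 0 without passing the adjusted threshold.

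The 21 cells with smooth muscle markers gave a second view of the same genes, without a test, since 11, 5, 3 and 2 cells hold 199931 UMIs in all. They had 24033 CPM of *Acta2*, against 288 CPM in the other cells, and 910 CPM of *Pecam1* against 5506 CPM. *Aldoa* had 463, 480, 525 and 424 CPM in them, above the 283 to 326 CPM of the other cells in every mouse. *Gapdh* had 463, 511, 657 and 121 CPM, above the other cells in 3 mice and below them in EC-WT mouse 2, and 465 CPM over all 21 cells (exact Poisson 95% interval 375 to 570, counting error only) against 233 CPM. *Pfkp* had 150, 136, 0 and 242 CPM, with no UMI in EC-WT mouse 1, and 145 CPM over all (97.1 to 208) against 41.6 CPM. *Higd1a* had 100, 115, 394 and 121 CPM, above the other cells in every mouse, and 120 CPM over all (76.9 to 179) against 30.1 CPM. *Ldhb* had 12 UMIs in these cells, 60 CPM (31 to 105), and 13 in the 420 others, 4.4 CPM. All 12 came from the mice labelled EC-KO, which gave 11 and 5 of the 21 cells, so no difference between the labels is read from this. *Ndrg1* went the other way in every mouse, with 138, 188, 263 and 60.5 CPM, or 160 CPM over all (109 to 226) against 490 CPM. *P4ha2* had 50.1, 10.4, 0 and 182 CPM, below the other cells in 3 mice and above them in EC-WT mouse 2, or 40 CPM over all (17.3 to 78.8) against 89.3 CPM. The values of EC-WT mouse 1 and EC-WT mouse 2 rest on few UMIs, so their directions are uncertain. These were 4 and 7 UMIs for *Aldoa*, 5 and 2 for *Gapdh* and 0 and 4 for *Pfkp*. *Higd1a* had 3 and 2, *Ndrg1* 2 and 1, and *P4ha2* 0 and 3. *Pfkfb3* had 6 UMIs, all in EC-KO mouse 1, and *Hk2* had 4, also all in that mouse, which gave 11 of the 21 cells.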

How the data were processed

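The authors sequenced 1 plate of 384 wells per mouse and deposited UMI counts, read counts (PCR duplicates included) and transcript counts, which are expected counts made by correcting UMI counts for the 4096 possible identifiers, all per gene and well and not normalized. The submitters' processing notes name BWA 0.7.15, Seurat and GRCm38 (mm10). The deposited well-position table was used to locate wells. All plates use the same 384 well barcodes, so wells are told apart by plate, and no doublet caller was run. Here UMI counts of kept wells, without ERCC and mitochondrial genes, were summed per mouse, or per mouse and class, and tested with edgeR 4.0.16 in R 4.3.3 (TMM, filterByExpr, quasi-likelihood test, Benjamini-Hochberg over all genes tested), with DESeq2 1.42.0 as an alternative. *Rn45s* held 3.47% to 7.26% of UMIs. Mice, not cells, were the replicates. Between the labels, p-values set the difference against the spread between mice of a label. With the mouse as a block, they set the difference between classes against its spread over the 4 mice. EC-KO mouse 2 and EC-WT mouse 1 share a flow cell and the others each have their own, so flow cell and label cannot be fully told apart. Replicates differed by more than sampling noise (chi-square per degree of freedom 4.38 and 2.94). Shares carry Clopper-Pearson intervals. Tests were tried on simulated counts in which 200 genes had a log2 fold change of 2 in either direction. Of these 200, 171 were recovered between the labels, 190 in the Klf comparison and 119 in that of *Cd36* or *Fabp4*. Smaller changes were not simulated. Tables were made in Python 3.11.15 and figures with matplotlib 3.10.9. All 31 listed genes were described whatever their values, and genes of the other lists where called. The genes, lists, markers and tests were chosen with earlier results of these data known, and the immediate-early list after seeing the data. Alternatives changed the cells, unit, normalization, filter, split, block or mice.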

Additional observations from a re-analysis of the deposited data

Results flagged for a closer look

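In the comparison of cells positive for *Cd36* or *Fabp4* with other cells, 3 genes had log2 ratios (positive over other cells, 0.5 added to each count) of one sign in both mice labelled EC-KO and the other sign in both labelled EC-WT. These are 3 of the 23 listed genes tested (13%), where 622 of all 6425 genes tested (9.68%) show such a split. By CPM with nothing added, they are *Ndrg1* and *Bnip3l*, 2 of 23 (8.7%), against 644 of 6425 (10%). The difference between the labels was not tested, and positive cells number 4 to 12 per mouse. *Ndrg1* had log2 ratios of -1.36 and -0.38 in the mice labelled EC-KO and 0.57 and 0.35 in those labelled EC-WT, a difference of the means of -1.33. *Pgk1* had ratios of 0.25 and 0.12 against -1.60 and -0.49, a difference of 1.23. The positive sign in EC-KO mouse 2 comes from the added 0.5, since its positive cells had 82.3 CPM (3 UMIs) and its other cells 87.7 CPM, and EC-WT mouse 1 had 1 UMI in positive cells. *Bnip3l* had ratios of -0.14 and -0.03 against 0.28 and 0.10, a difference of -0.27. Groups of 2 mice are too small for the check on outlying samples.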

How the results depend on the processing

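Between the labels, where the main count was 0, the number of genes called was 10 with all kept wells, 6 without cells over 3 times the median UMIs, 1 with cells thinned to 1000 UMIs, 19 with no filter on low counts and 18 to 73 with a mouse left out (73 without EC-WT mouse 1), where a lone mouse is assumed to vary like the other group. It was 0 in the other alternatives, including testing without *Rn45s*, which was chosen after seeing the data. No listed gene was called in any of them. The mice's numbers in the labels showed no pairing (correlation of their deviations -0.0364). With 2 mice per label both pairs give this same value, so it cannot exclude a pairing. With the number as a replicate block 0 genes were called, and *Pfkfb3* had a log2 fold change of 0.50. For Klf-high against Klf-low cells the count was 62 with the upper and lower 2 equal parts, 42 with DESeq2, 39 without the mouse as a block and 24 to 101 with a mouse left out (24 without EC-KO mouse 2, 32 without EC-WT mouse 1). There, 0 listed genes were called with 2 equal parts, with no filter or without the block, and 0 to 1 with a mouse left out. *Pfkfb3* lost its call with 2 equal parts (log2 fold change -0.85), ranking by *Klf2* alone (-0.64), ranking after thinning (-0.96), no minimum of 2000 UMIs (-1.13), no filter (-1.34), no block (-1.29), and without EC-KO mouse 1, EC-KO mouse 2 or EC-WT mouse 1 (-1.52 to -1.16 over the 4 mice left out). DESeq2 set no adjusted P for it (log2 fold change -1.39, unadjusted P = 0.0114). For *Cd36* or *Fabp4* the count was 215 with DESeq2. It was 187 to 291 with a mouse left out (187 without EC-KO mouse 2, 206 without EC-WT mouse 1, 240 without EC-WT mouse 2). With no TMM factors 349 of 6425 genes were called, 2 of them listed genes. Causes of these changes were not tested. Of 464, 220 and 179 values of single listed genes under alternatives in the 3 comparisons, 35, 8 and 30 had the opposite sign to the main value, in 16, 6 and 13 genes, none of them called under the main settings. 7 listed genes had too few UMIs to be tested between the labels, and the part of depth in this was not tested.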

Other observations

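The 16 glycolytic enzymes took a median of 0.182%, 0.188%, 0.179% and 0.184% of a cell's UMIs in the 4 mice, so the median cell differed less between mice than the sums did. The central range (5th to 95th percentile) ran from 0.0617% to 0.321%, 0.0805% to 0.32%, 0.0528% to 0.379% and 0.0743% to 0.362%. In EC-WT mouse 2, 1 cell with 41359 UMIs held 152 enzyme UMIs, 13.1% of that mouse's enzyme UMIs from 7.53% of its UMIs. It held 35 of 206 *Ldha* UMIs, 23 of 134 *Gapdh* UMIs and 28 of 247 *Pkm* UMIs, and without it *Ldha* was 336 instead of 375 CPM and *Gapdh* 218 instead of 244 CPM, while *Mif* was still 102 CPM.

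The 480 wells of rows L to P, all below the limit for cells, had a median of 21 to 63 nuclear UMIs per well in the 4 plates. Summed per plate, these wells held 26, 31, 18 and 28 UMIs of the 31 genes, which made 3087, 4246, 4076 and 3237 CPM, beside 3303, 3553, 3240 and 3410 CPM in the cells.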
